A study of Drosophila melanogaster with 20 samples.

Results

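Binding of the ecdysone receptor EcR was compared between leg imaginal discs and salivary glands of Drosophila melanogaster larvae. All 3463 sites of the authors' deposited leg and gland table were used, which are all 3463 sites of the study's 3 comparison tables, beside the leg and gland peak lists. The study measured EcR in wing, leg and salivary gland by CUT&RUN, in which an antibody tethers a nuclease that cuts DNA next to the bound protein. Of 20 libraries in the study, 8 are anti-Flag libraries of these tissues, 4 from leg and 4 from gland. Which of them entered the authors' fit is not stated. Each tissue has 2 replicates of the released fragments (supernatant) and 2 of the fragments that stayed with the nuclei (pellet). Leg and gland libraries had the same genotype, w; EcR-GFSTF / Df(2R)BSC313, that is, an EcR allele with a tag carrying the Flag epitope over a deletion on 2R whose extent the labels do not give. Both came from female wandering larvae 6 h before puparium formation, with at least 90 legs or at least 50 glands dissected, and both were probed with anti-Flag. The 8 IgG libraries, 6 from wild-type wings and 2 from glands, were not analysed here. Peak names point to the merged wing IgG as the control of every peak list, the gland's included.

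EcR is a nuclear receptor that binds DNA together with Ultraspiracle and carries the signal of ecdysone, the steroid that triggers moulting and metamorphosis. Hormone-bound EcR switches on early genes, many of them transcription factors and nuclear receptors, which in turn regulate the late response. At the onset of metamorphosis leg discs turn inside out and lengthen into legs, while salivary glands expel their glue and later die. Gland cells are polytene: they copy their DNA without dividing, and heterochromatin near the centromeres is copied less than the rest.

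The deposited tables hold finished comparisons, with no value per library, so depth per library is unknown and no replicate values can be shown. Whether replicates were dissected separately is not stated in the labels, and the authors' p-values measure only the spread between libraries, which may be technical. Supernatant and pellet libraries of a tissue carry the same replicate numbers. Whether the fit treated these fractions as independent is not stated, and if it did the adjusted p may be too small. The mean normalised read count of a site in the authors' deposited table ranged widely, with quartiles of 5.58 and 20.1 around a median of 9.59. That mean was identical in all 3 tables, so it covers wing libraries too. The median standard error of the log2 fold change was 0.62 in the authors' deposited table, and sites had a median width of 148 bp. The files measure binding and not RNA, so the labelled tissues could not be checked against expressed markers. Whole discs and glands were used, so signal in fewer cells and weaker signal per cell cannot be told apart. Coordinates are on dm6 and 1-based.

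EcR signal differed between leg and gland in both directions, and how many sites differed depended on the scaling. Of 3459 sites with an adjusted p, 1810 were called at a DESeq2 adjusted p under 0.05 in the authors' deposited table (52.3%). EcR signal was higher in leg at 1024 sites (29.6%) and higher in gland at 786 sites (22.7%), and 1649 sites were not called. The median log2 fold change of leg over gland was 1.94 at sites higher in leg and -2.06 at sites higher in gland, in the authors' deposited table. Differences of more than 3 log2 units were found at 55 sites higher in leg and 83 sites higher in gland. The fold change over all sites had a median of 0.63 in the authors' deposited table, toward leg, and 0.37 on the chromosome arms away from centromeres. With fold changes centred on the median of the arms, 424 sites were higher in leg (12.3%) and 1043 higher in gland (30.2%), 42.4% in all, so leg made up 28.9% of calls against 56.6% as deposited. Centred on the arms away from centromeres, the counts were 650 (18.8%) and 934 (27%), 45.8% in all. The balance between tissues therefore rests on the scaling, and changes below are also given relative to the 0.63 shift where a direction turns.

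**Figure D1:**
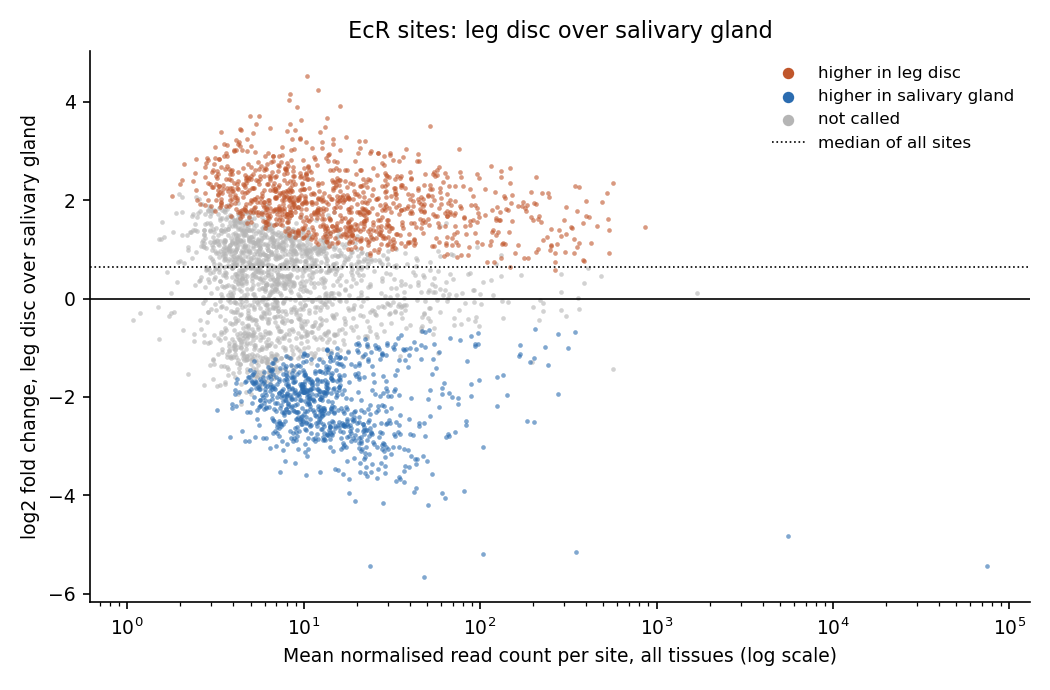
Each point is a site of the leg and gland comparison; the horizontal axis is the mean normalised read count over the libraries of the authors' deposited table (log scale) and the vertical axis the log2 fold change of leg over gland. Orange points are the 1024 sites higher in leg, blue points the 786 sites higher in gland, and the dotted line is the median of all sites, 0.63.

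Calls became more frequent with the read count. In 5 equal bins of the mean in the authors' deposited table, from lowest to highest, 22.9%, 36.7%, 56.9%, 68.6% and 76.4% of sites were called. In the lowest bin, with means of at most 4.96, 137 sites were higher in leg and 21 higher in gland. The depth per library is unknown, so at low counts a site that was not called is not shown to be equal in leg and gland. The plot of mean against fold change shows the same widening wedge of uncalled sites at the left.

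The largest differences were mostly outside genes or near centromeres on the leg side and, beside chromosome M, mostly inside genes on the gland side. By the rule for named sites (mean at or above the median, 1 site per gene), the largest leg value on an arm with a gene was in Ppn, which encodes the basement membrane protein papilin: log2 fold change 4.24, SE 0.77, adjusted p = 8.81e-07 by DESeq2 in the authors' deposited table (3R, 28536533 to 28536736). A site 4322 bp from the span of Wnt6, a secreted Wnt signal, had 3.25, SE 0.67, in the authors' deposited table (2L, 7356740 to 7356989), and a site 1225 bp from the ribosomal protein gene RpL17 had 3.64, SE 0.71, there. Of the 15 largest leg sites, 12 were near a centromere or had no coding gene within 5000 bp, the top one among them (X, 21952149 to 21952235, 4.53, SE 0.79, in the authors' deposited table). The largest gland values in genes were at scramb1, a phospholipid scramblase gene, with -4.20, SE 0.45, and at Keap1, which encodes the inhibitor of the oxidative stress response, with -4.16, SE 0.48, in the authors' deposited table. A site inside EcR itself followed, with -4.11, SE 0.69, in the authors' deposited table. Fatp3, a fatty acid transport protein gene, had -3.96 and Tpst, which encodes a tyrosylprotein sulfotransferase of the secretory pathway, had -3.92 at a site it shares with CG46311, in the authors' deposited table. Each of these 5 gland sites had gland peaks in both fractions and no leg peak.

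The genes that make up the receptor complex had gland-biased sites only among those called. Of 9 genes of the receptor and its partners, 4 had a site within 2000 bp of their span, 22 sites in all. None was higher in leg and 9 were higher in gland (40.9%, against 22.7% of all sites). The median log2 fold change was -1.23, against 0.63 over all sites in the authors' deposited table. After centring on the arms the counts were 0 and 15 (68.2% higher in gland, against 30.2% of all sites). EcR had 8 sites, 6 of them higher in gland. From the low-coordinate end of the gene span the 8 log2 fold changes of leg over gland were -2.69, -1.45, -4.11, -3.06, -1.26, -2.58, -1.87 and 0.62 in the authors' deposited table, and those of -1.26 and 0.62 were not called. The largest difference lay on 2R from 6133131 to 6133402, with an adjusted p of 5.48e-08 by DESeq2 in the authors' deposited table. The wing over gland value there was -4.50 and the wing over leg value -0.40 (adjusted p = 0.925 by DESeq2) in the authors' deposited tables. These comparisons share libraries with leg over gland. The gene tai, which encodes the coactivator Taiman, had 12 sites, and 3 of them were higher in gland, the clearest with -2.82, SE 0.32, adjusted p = 5e-16 in the authors' deposited table (2L, 9237343 to 9237871). The corepressor gene Smr had 1 site at -0.18 in the authors' deposited table, not called, and Trl, which encodes GAGA factor, 1 site that was not called either. No site lay within 2000 bp of usp, the gene of EcR's partner.

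Nuclear receptor genes of the ecdysone response had sites of both directions, often a few kilobases apart. Their list, which also holds the ABC transporter gene E23, had 8 of 10 genes with sites and 109 sites. Of these, 22 were higher in leg (20.2%) and 48 higher in gland (44.0%), against 29.6% and 22.7% of all sites. The median was -0.53 in the authors' deposited table. After centring on the arms the counts were 5 (4.59%) and 58 (53.2%), against 12.3% and 30.2% of all sites. The gland sites were spread over all 8 genes and the leg sites over 4: Eip75B, Eip78C, Hr3 and Hr4.

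Eip75B, an early gene whose nuclear receptor product binds haem, had more sites than any other gene. Its 57 sites lay along a span of 114 kb, with 14 higher in leg, 28 higher in gland and 15 not called. Read from the low-coordinate end, the called sites formed 9 runs of alternating direction. The first run held 14 sites higher in gland between 11.3 and 38.4 kb, and the next 2 sites higher in leg at 40.5 and 41.0 kb. Then came 7 sites higher in gland (43.0 to 54.7 kb), 3 higher in leg (55.5 to 57.9 kb), 1 higher in gland at 61.3 kb, 4 higher in leg (62.5 to 68.2 kb), 5 higher in gland (70.2 to 78.8 kb), 5 higher in leg (82.0 to 87.5 kb) and 1 higher in gland at 112.3 kb. The extremes were -3.36, SE 0.35, at 72.9 kb, and 2.47, SE 0.38, at 87.1 kb, in the authors' deposited table. Direction changed on both sides of the site at 61.3 kb, which had -1.56 (SE 0.20) while its called neighbours at 57.9 and 62.5 kb had 0.88 (SE 0.38) and 1.05 (SE 0.30), in the authors' deposited table. The strongest site of the gene, with a mean of 364 (3L, 17964478 to 17965802), was not called: its fold change was -0.21, SE 0.26, in the authors' deposited table. Centred on the arms it became a gland call, with -0.84 (adjusted p = 0.00464, from the normal p of the centred change), and centred on the arms away from centromeres it had -0.59 and was not called. After centring on the arms 3 sites were higher in leg and 30 higher in gland, in 5 runs.

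**Figure D2:**
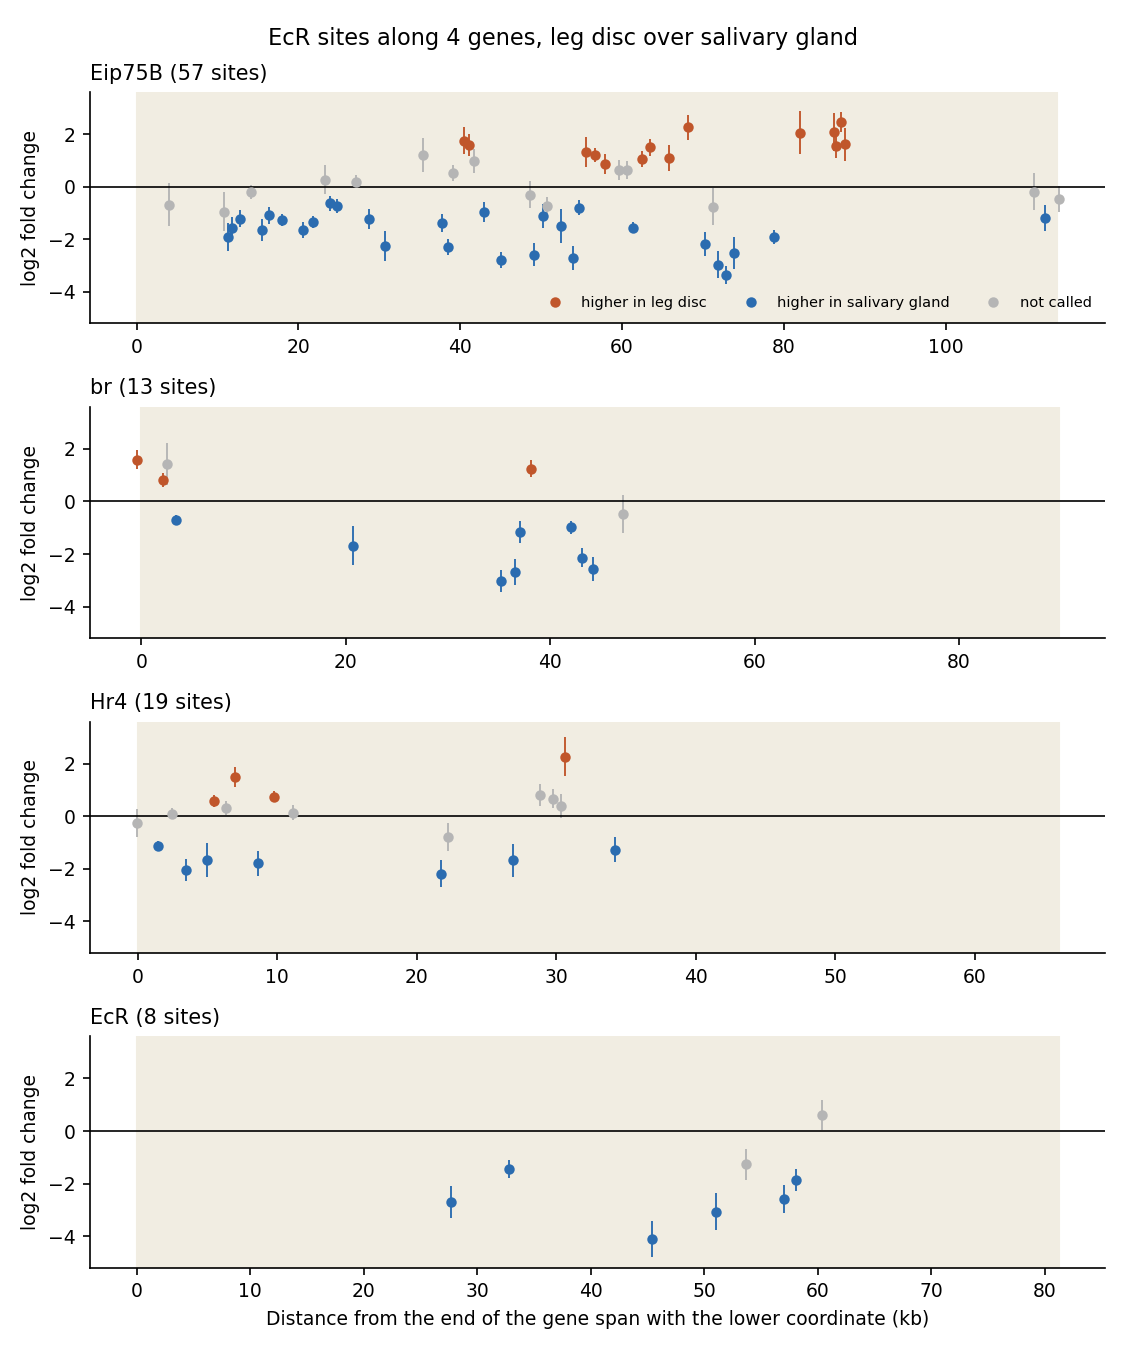
Points are EcR sites along Eip75B, br, Hr4 and EcR, with the log2 fold change of leg over gland in the authors' deposited table and its standard error as the bar; the horizontal axis is the distance in kb from the end of the gene span with the lower coordinate, and the shaded band is the span. Orange sites (higher in leg) and blue sites (higher in gland) alternate in Eip75B, br and Hr4 as deposited, in 9, 4 and 7 runs of called sites, against 5, 2 and 3 runs after centring, and the 6 called sites of EcR are all higher in gland.

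Hr4, a nuclear receptor gene that times the response to the hormone pulses, had 19 sites, 4 higher in leg and 7 higher in gland, in 7 alternating runs. Its strongest site (X, 1947901 to 1948584, mean 388) had a log2 fold change of 0.32, SE 0.27, and was not called in the authors' deposited table. A site before it, at 1943161 to 1943708, was higher in gland, with -1.13, SE 0.19, and the next site after it, at 1948773 to 1949086, was higher in leg, with 1.49, SE 0.37, in the authors' deposited table. Another, at 1947097 to 1947660, was higher in leg with 0.58, SE 0.23, in the authors' deposited table and turned to -0.051 after centring. The other 2 genes with leg sites were Eip78C and Hr3. Eip78C had 3 sites higher in leg and 2 higher in gland. Among them the leg site at 21252542 to 21252893 on 3L had 1.74, SE 0.44, and the gland site at 21255252 to 21255409 had -2.24, SE 0.42, in the authors' deposited table. Between them lay the strongest Eip78C site, at 0.01, SE 0.25, in the authors' deposited table, which turned to -0.62 after centring. Hr3, an early-late receptor gene, had 1 site higher in leg and 4 higher in gland, the clearest with -2.73, SE 0.35, in the authors' deposited table, and its span overlaps CG12912 and CG46321. E23, which encodes a transporter that lowers the ecdysone response in fly cells, had 5 sites. Its 3 called sites were all higher in gland, with -3.56, -2.02 and -1.72 in the authors' deposited table.

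The early transcription factor genes br and Eip74EF had more gland than leg calls, and the list they belong to, which also holds heat shock, Imp and transporter genes, had both. Among 22 other ecdysone-induced genes, 16 had sites, 76 in all, with a median of -0.30 in the authors' deposited table. Of these sites 17 were higher in leg (22.4%) and 24 higher in gland (31.6%), against 29.6% and 22.7% of all sites. After centring 8 and 32 were called, and counting sites inside gene spans alone moved the difference of leg and gland sites to -18 from -7. The zinc finger gene br (Broad), which directs the larval to pupal switch, had 13 sites, 3 higher in leg and 8 higher in gland. Its leg sites lay at -0.5, 2.1 and 38.1 kb from the low-coordinate end and had 1.59, 0.83 and 1.24 in the authors' deposited table. The clearest gland site (X, 1610021 to 1610627, mean 104) had -3.02, SE 0.41, adjusted p = 1.51e-11 in the authors' deposited table. The span of br overlaps Mur2B, so these sites cannot be assigned to either gene alone. Eip74EF, an ETS factor gene, had 18 sites, none higher in leg and 6 higher in gland, the clearest with -2.58, SE 0.39, in the authors' deposited table. The calcium-binding protein gene Eip63F-1 had 2 sites, both higher in gland, at -2.51 and -3.11 in the authors' deposited table.

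Among the other induced genes, Blimp-1, ImpE1, ImpE2 and ImpE3 had leg calls alone as deposited. ImpL2 had 1 gland call and vri had calls in both directions. These leg calls depended on the scaling: after centring on the arms, those of the whole list fell from 17 at 10 genes to 8 at 6 genes. Blimp-1, a repressor that times the prepupal stage, had 3 sites, all higher in leg, with 2.72, 1.08 and 1.95 in the authors' deposited table. The last (3L, 5633089 to 5634517, mean 488) had SE 0.31 and an adjusted p of 6.65e-09 by DESeq2 in the authors' deposited table. ImpE2, an ecdysone-inducible gene first found in imaginal discs, had 4 sites, all higher in leg, between 1.42 and 2.57 in the authors' deposited table. The sites at 1.42 and 2.57 also lie within 2000 bp of Eip63E. ImpE1 and ImpE3 had 1 leg site each, at 1.63 and 1.76 in the authors' deposited table. The bZIP gene vri had both: 2 leg sites before the span, at 2.18 and 1.48, and 4 gland sites within it, between -2.08 and -1.29, in the authors' deposited table. After centring on the arms vri had 1 leg site and 5 gland sites. Its strongest site (mean 286) had -0.23, SE 0.28, in the authors' deposited table and was not called; centred on the arms it became a gland call, with -0.86, and centred away from centromeres, with -0.60, it did not.

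Juvenile hormone, which holds back metamorphosis, acts through the receptors Met and gce and their target Kr-h1. Of 10 genes on this list 2 had sites, 12 in all. As deposited 1 site was higher in leg (8.33%) and 6 were higher in gland (50.0%), against 29.6% and 22.7% of all sites. Centred on the arms the counts were again 1 and 6. All 3 sites of gce were higher in gland, at -2.87, -3.71 and -2.56 in the authors' deposited table, the middle one with SE 0.48 and an adjusted p of 1e-12. Kr-h1 had 9 sites, 1 higher in leg (1.83, SE 0.37) and 3 higher in gland, between -2.17 and -0.69 in the authors' deposited table. The leg site lay at 4.6 kb of the span, between gland sites at -0.2 and 7.3 kb.

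Genes that pattern the leg had more leg than gland calls as deposited, most of them with low read counts, and this depended on the scaling. The list of leg identity and proximodistal axis genes had 11 of 25 genes with sites and 27 sites, 11 higher in leg and 1 higher in gland, with a median of 1.28 against 0.63 over all sites in the authors' deposited table. The shares higher in leg and in gland were 40.7% and 3.70%, against 29.6% and 22.7% of all sites. Centred on the arms the counts were 2 and 3, and centred on the arms away from centromeres 5 and 2. The direction thus turned under 1 of the 2 centrings. The share higher in leg was then 7.41% against 12.3% of all sites, and 18.5% against 18.8%. The homeobox gene hth, which marks the proximal leg, had 10 sites, 4 of them higher in leg, with 2.21, 3.09, 1.01 and 1.70 in the authors' deposited table. Lim1, a homeobox gene of the distal leg tip, had 2 sites, both higher in leg at 2.00 and 1.90 in the authors' deposited table. The tarsal gene bab1 had 3 leg sites and 1 gland site (3L, 1092995 to 1093248, -1.98, SE 0.50, in the authors' deposited table). Sp1, a leg-forming zinc finger gene, had 1 leg site at 2.33, and disco-r 1 at 1.93, in the authors' deposited table. Dll, the gene that specifies the distal leg, had 1 site at 1.25 in the authors' deposited table, not called, and no site lay within 2000 bp of dac.

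Of the signalling lists, Notch and Wnt genes had a share of sites higher in leg above the 29.6% of all sites as deposited (42.9% and 41.0%), and Dpp and Hedgehog genes a share like it (30.0%). Centred on the arms, the shares were 7.14% for Notch, 25.6% for Wnt and 10.0% for Dpp and Hedgehog, against 12.3% of all sites. Centred on the arms away from centromeres, they were 21.4%, 28.2% and 13.3%, against 18.8% of all sites. Sites at genes of leg joints and Notch signalling were higher in leg at 6 of 14 and higher in gland at none (median 1.16 in the authors' deposited table, and 1 and 0 after centring). The receptor gene N had 2.87, SE 0.67, in the authors' deposited table, and the Notch target E(spl)mbeta-HLH had 2.41 and 2.74. Dpp and Hedgehog genes had 9 leg and no gland sites of 30 (median 0.91 in the authors' deposited table, and 3 and 1 after centring). The Dpp receptor gene tkv had the clearest of them, 2.93, SE 0.41, adjusted p = 6.15e-11, in the authors' deposited table (2L, 5253363 to 5253848), and the glypican genes dally and dlp had 2 and 3 leg sites. Wnt and planar polarity genes had 16 leg and 3 gland sites of 39 (median 1.24 in the authors' deposited table, and 10 and 4 after centring). Among them the Wnt antagonist gene nkd had 4 leg sites, with up to 2.41, the cadherin gene stan had 2.57, SE 0.44, and the receptor gene fz3 had 2.79 and 2.17 in the authors' deposited table. The cadherin gene ds and the receptor gene fz2 had 3 leg sites and 1 gland site each.

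EGFR pathway sites were mixed, with 7 higher in leg and 9 higher in gland of 31 (median 0.63 in the authors' deposited table, and 4 and 14 after centring). The shares as deposited were 22.6% higher in leg and 29.0% higher in gland, against 29.6% and 22.7% of all sites. Of the gland calls 6 were at Raf, the kinase between Ras and MEK. The site at 2337271 to 2337546 on X had -3.72, SE 0.55, adjusted p = 9.48e-10, in the authors' deposited table. The ligand gene spi, the antagonist gene aos and the factor gene pnt had 1 leg site each, at 2.39, 2.63 and 1.27 in the authors' deposited table. The site counted for aos lies inside CG33158, within 2000 bp of aos, and had a mean of 3.76 in the authors' deposited table. The receptor gene Egfr had 1 site of each direction, 1.78 and -1.83, and the repressor gene yan had 1 leg site and 2 gland sites, in the authors' deposited table. Of 11 Hippo pathway sites 1 was higher in leg, near the microRNA gene mir-ban (1.50 in the authors' deposited table). Another 2 were higher in gland, both at the caspase inhibitor gene Diap1. The Hippo shares were 9.09% and 18.2%, against 29.6% and 22.7% of all sites, and the counts after centring on the arms 0 and 3.

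Hox genes, which give segments their identity, had 5 leg and no gland sites of 8, with a median of 2.20 in the authors' deposited table. After centring the counts were 3 and 0. The share higher in leg was 62.5% as deposited, against 29.6% of all sites, and 37.5% centred on the arms, against 12.3%. Ubx, which specifies the third thoracic segment, had 6 sites. The 4 called ones had 2.94, 2.47, 2.38 and 3.12 in the authors' deposited table. At the site with 2.94 (3R, 16663517 to 16663898) the wing over leg value was -2.32 (adjusted p = 1.54e-06) and the wing over gland value 0.62 in the authors' deposited tables. At the site with 2.47 the wing over leg value was -2.74 (adjusted p = 0.00908) and the wing over gland value -0.27 in the authors' deposited tables. The wing comparisons share the leg and gland libraries. Antp, the Hox gene of the second thoracic segment, had 2 sites, and 1 was higher in leg at 2.02, SE 0.74, in the authors' deposited table. Over all sites the authors' deposited wing over leg table called 49 of 3327 (1.47%), 0.571% higher in wing and 0.902% lower, and in wing over gland it was 55.1% (28.7% higher and 26.4% lower in wing). The median fold changes at sites higher in leg were 1.94 for leg over gland, 1.69 for wing over gland and -0.23 for wing over leg in the authors' deposited tables. At sites higher in gland they were -2.06, -2.45 and -0.29 there. Both groups of sites were chosen by their leg over gland value.

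Genes of disc eversion and matrix had 8 leg and 3 gland sites of 28, with a median of 0.52 in the authors' deposited table. The share higher in leg, 28.6%, was near the 29.6% of all sites. The counts were 4 and 7 when centred on the arms, and 6 and 6 when centred on the arms away from centromeres. Ppn had 3 leg sites of 4, at 4.24, 2.26 and 2.07 in the authors' deposited table. Np, a transmembrane serine protease gene of appendage formation, had 3.55, SE 0.83, and the matrix gene dpy had 2.26 and 1.59, in the authors' deposited table. Sb, the stubble protease gene needed for leg elongation, had 2 leg sites, at 2.08 and 1.22 in the authors' deposited table. The gland calls of the list were at sqh (-1.37), LanB2 (-1.59) and RhoGEF2 (-2.49) in the authors' deposited table, the last a site shared with Dark. Cell cycle genes had 6 leg and no gland sites of 14 (1 and 0 after centring), at E2f1, Cdk4 and the mitotic phosphatase gene stg, none above 1.78 in the authors' deposited table. Their share higher in leg was 42.9% as deposited, against 29.6% of all sites, and 7.14% centred on the arms, against 12.3%.

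Genes known for the gland itself had calls in both directions or none. Sites lay at 33.3% of gland identity genes, 25.0% of secretory machinery genes and 7.69% of glue genes, against 13.8% of all coding genes. The gland identity list had 4 of 12 genes with sites and 8 sites, 3 higher in leg and 2 higher in gland (2 and 2 after centring). The shares as deposited were 37.5% and 25.0%, against 29.6% and 22.7% of all sites. fkh, the fork head factor gene that keeps gland identity, had 1 site, higher in gland at -1.84, SE 0.48, in the authors' deposited table, and sens had 1 at -2.22, SE 0.58. The leg calls were at trh, a bHLH-PAS gene also of trachea (3.08 and 2.59, at means of 3.15 and 3.21), and CrebA (0.83) in the authors' deposited table. Of 13 salivary glue genes only Sgs1 had a site, at 1.34 in the authors' deposited table, not called. Secretory machinery genes had 3 leg sites, 2 at Pgant9 and 1 at Pdi, and 1 gland site, near Snap29, of 7. Their shares as deposited were 42.9% and 14.3%, against 29.6% and 22.7% of all sites. Centred on the arms the counts were 0 and 1, and centred on the arms away from centromeres 2 and 1.

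Cell death and autophagy genes, which act in the later destruction of the gland, had 2 leg and 7 gland sites of 15, with a median of -1.25 in the authors' deposited table, and 0 and 8 after centring. The shares as deposited were 13.3% higher in leg and 46.7% higher in gland, against 29.6% and 22.7% of all sites. The gland sites were at Diap1, Dark, Atg5, Atg7 and Atg13. Diap1 had the clearest (3L, 16038006 to 16038302), with -3.05, SE 0.45, adjusted p = 7.52e-10 in the authors' deposited table. Dark, the apoptosome gene, had -2.51 and -2.49, and the autophagy genes Atg5, Atg7 and Atg13 had -2.30, -1.94 and -1.83, in the authors' deposited table. The leg calls were at the autophagy kinase gene Atg1 (1.97) and the death inducer hid (1.69) in the authors' deposited table. Atg9 had 1 site with no adjusted p. Diap1 is also on the Hippo list.

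Marker genes of other cells that a dissected gland or disc can carry also had called sites. Fat body markers had 9 sites at 7 of 10 genes, 1 higher in leg (Lsp1gamma, 1.90) and 6 higher in gland (Fbp1 at -2.75, Fbp2 at -2.29, Lsp2 at -2.28, srp at -1.81, apolpp at -1.64 and Lsp1beta at -1.55, in the authors' deposited table), and 1 and 7 after centring. The fat body shares as deposited were 11.1% higher in leg and 66.7% higher in gland, against 29.6% and 22.7% of all sites. Haemocyte markers, which share srp with the fat body list, had 2 leg and 2 gland sites of 6 (33.3% each). Muscle and myoblast markers had 1 and 3 of 12 (8.33% and 25.0%). The leg call was at how, and the gland calls at zfh1, ct and Mef2 (-1.65 in the authors' deposited table). Trachea markers had 3 and 1 of 7 (42.9% and 14.3%). Neuron markers had 1 (neur, 3.40, mean 3.41) and 0 of 3 (33.3% and 0%), in the authors' deposited table. Against 29.6% and 22.7% of all sites, these shares rest on few sites. The files hold no RNA level of these markers, and the part of other cells in the gland or leg values was not tested.

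**Figure D3:**
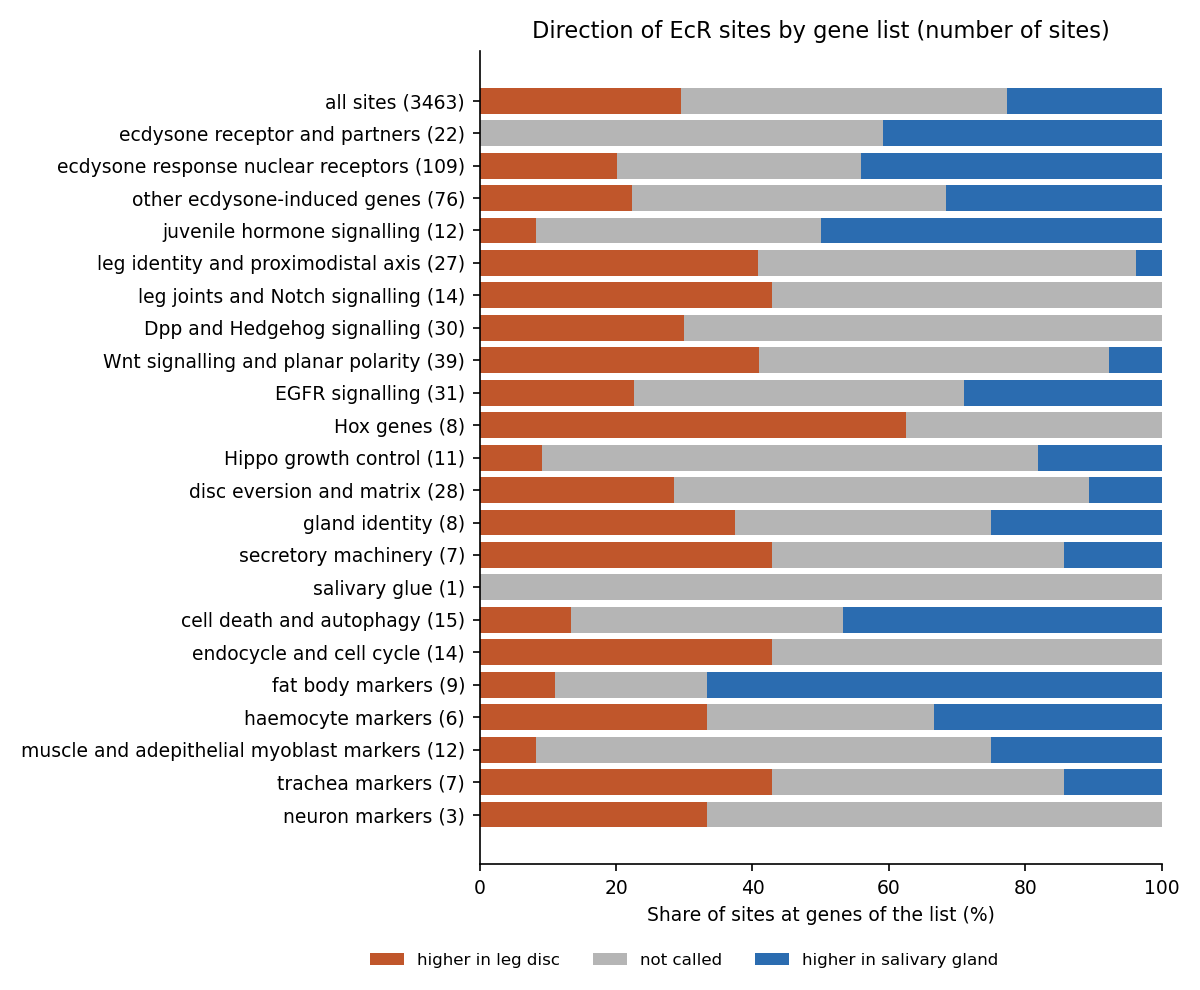
Bars give, for each gene list, the share of its EcR sites (within 2000 bp of a gene of the list) that were higher in leg (orange), not called (grey) and higher in gland (blue); numbers of sites are in brackets. Against 29.6% of tested sites higher in leg and 22.7% higher in gland among all sites, the receptor and partner list has, as deposited, no orange and the Notch, Dpp and Hedgehog, Hox and cell cycle lists have no blue; after centring the Dpp and Hedgehog list has 1 gland site.

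Called sites close together mostly shared their direction, and the share fell with distance. Among neighbouring called sites up to 1 kb apart, 314 of 324 pairs had the same direction (96.9%). The share was 85.0% (283 of 333) at 1 to 5 kb, 74.5% (222 of 298) at 5 to 20 kb, 62.2% (145 of 233) at 20 to 50 kb and 56.5% (347 of 614) beyond. Without sites near centromeres the shares went from 95.3% for the closest pairs to 54.0% for the most distant. Centred on the arms the shares were 98.3%, 88.3%, 83.7%, 68.6% and 67.9% from the closest to the most distant pairs. Unequal numbers of calls also make pairs agree more often, and centring left 424 sites higher in leg and 1043 higher in gland. The share of random pairs that would agree was not computed. Neighbouring sites can lie within the same bound region, so pairs are not independent.

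**Figure D4:**
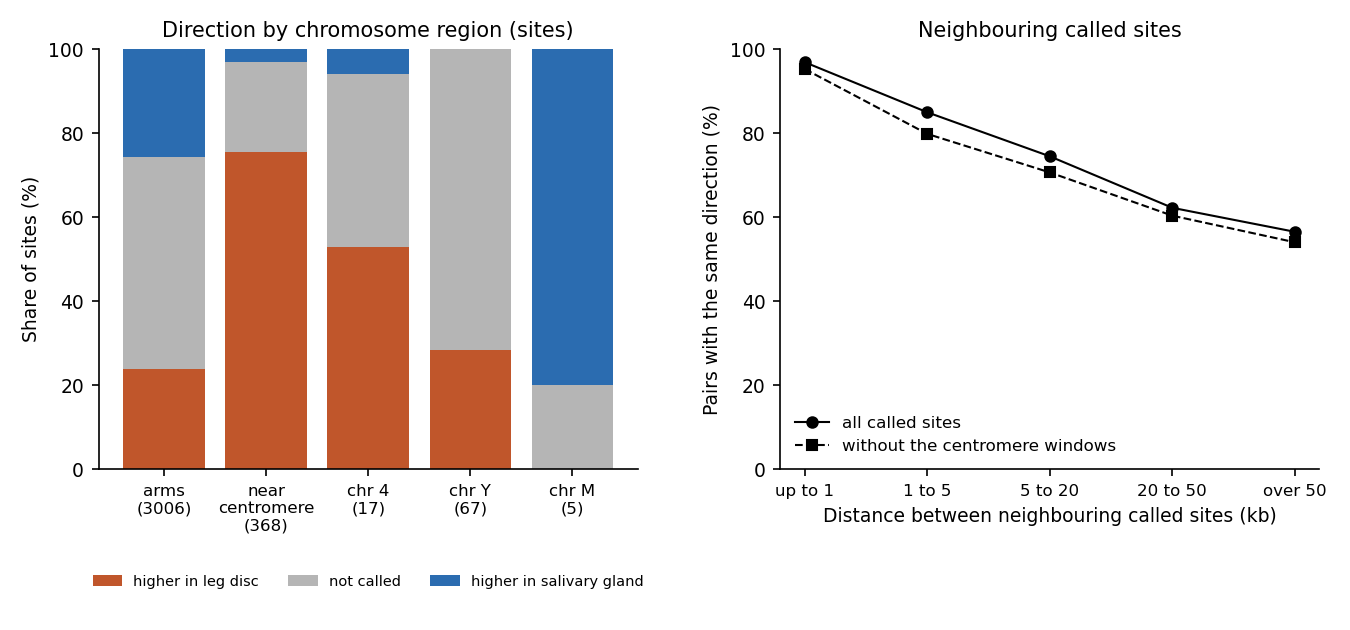
Left, the share of sites higher in leg, not called and higher in gland on the arms away from centromeres, in windows near centromeres and on chromosomes 4, Y and M, with the number of sites in brackets. Right, the share of neighbouring called sites with the same direction by distance, which falls with distance to 56.5%, or to 54.0% without the windows near centromeres.

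Of 1929 coding genes with a site within 2000 bp, 280 had at least 2 called sites. Overlapping genes share sites. At 77 of the 280 (27.5%) sites of both directions occurred, at 78 all called sites were higher in leg and at 125 all were higher in gland. After centring on the arms, 50 of 249 genes with at least 2 called sites had both directions (20.1%). Without centring, at an adjusted p under 0.01, the count was 39 of 165 (23.6%). Besides Eip75B, br, Hr4 and Eip78C, both directions were found at drn (6 leg, 3 gland sites), Glut4EF (4 and 5, a span shared with CG46467), foxo (3 and 2) and Samuel (2 and 4). Glut4EF, a transcription factor gene, had 1.67, SE 0.34, at 86.7 kb and -3.46, SE 0.51, at 80.1 kb, in the authors' deposited table. In foxo, the forkhead factor gene of insulin signalling, leg sites at 4.4 to 7.2 kb (0.94 to 2.18) gave way to gland sites at 8.5 and 11.1 kb, with -2.28 and -3.09 in the authors' deposited table. After centring foxo and Samuel had gland sites only.

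Several genes with many called sites leaned to 1 tissue. The translational repressor gene brat had 12 leg sites and 1 gland site of 20. Its leg sites reached 2.26, SE 0.45, and the gland site, at 25.8 kb beside a leg site at 25.1 kb, had -2.84, SE 0.56, in the authors' deposited table. After centring brat had 5 leg sites and 1 gland site. The kinase gene nmo (Nemo) had 11 leg sites and 1 gland site of 14, and after centring 6 and 2. The zinc finger gene mamo and the tyrosine kinase gene Btk had 6 leg sites each and no gland site, and after centring 4 and 2 leg sites. On the gland side beat-Ib, of a family of axon guidance genes, had all 6 of its sites higher in gland, between -2.48 and -0.89, and the strongest had a mean of 202 in the authors' deposited table. Myo81F had 13 leg sites of 22, but its span lies in heterochromatin near the centromere of 3R.

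Peak calls and fold changes came from the same libraries, so their match is a description. A leg peak alone, in either fraction, was present at 1455 sites, of which 806 were higher in leg, none was higher in gland and the median was 1.48 in the authors' deposited table. Of 458 sites with peaks in both tissues, 101 were higher in leg and 141 higher in gland, 216 were not called and the median was -0.20 in the authors' deposited table. Of 928 sites with a gland peak alone, 645 were higher in gland and none higher in leg, with a median of -1.85 in the authors' deposited table. The other 622 sites had neither, since the tables also cover peaks of the wing: 117 were higher in leg and none higher in gland.

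**Figure D5:**
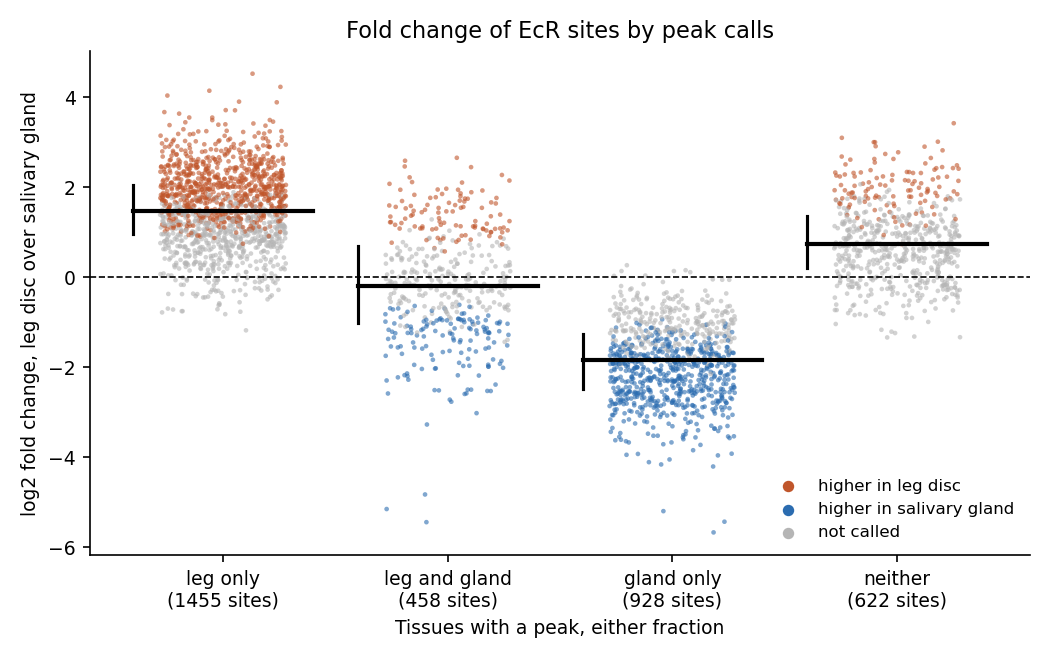
Points are sites, with the log2 fold change of leg over gland in the authors' deposited table on the vertical axis, by the tissues that had a peak in either fraction; black lines mark the median and the short vertical lines the quartiles. Sites with a leg peak alone have a median of 1.48, those with both -0.20 and those with a gland peak alone -1.85.

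Sites with peaks in both fractions of 1 tissue were called most often. With both gland fractions and no leg peak, 374 of 380 were higher in gland, against 159 of 341 with a gland supernatant peak alone and 112 of 207 with a pellet peak alone. In leg the counts were 278 of 325 for both fractions, 291 of 780 for supernatant alone and 237 of 349 for pellet alone. At 188 sites all 4 lists had a peak, and there 38 were higher in leg, 65 higher in gland and 85 not called. Fold enrichments of peaks are the authors' values and rank peaks only within a list. Ranked in 5 equal bins by fold enrichment, in the strongest bin of sites with a leg supernatant peak 180 of 307 were higher in leg and 34 higher in gland. In the strongest bin of those with a gland supernatant peak the counts were 15 higher in leg and 164 higher in gland of 226. Between the supernatant lists, 431 of 1596 leg peaks (27.0%, exact 95% interval 24.8 to 29.3) shared at least 1 bp with a gland peak, and 423 of 1174 gland peaks (36.0%, 33.3 to 38.9) with a leg peak. In the pellet lists the shares were 24.6% of leg peaks and 25.7% of gland peaks. The intervals cover counting error only and treat peaks as independent.

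A set of sites had nearly equal signal in both tissues as deposited. The 95% interval of the fold change lay within 1 log2 unit of 0 at 83 sites (2.40% of all), whose median mean was 51.1, and 74 of them had peaks in both tissues. Centred on the arms, 30 of the 83 became gland calls and none a leg call, and centred on the arms away from centromeres 6 became gland calls and none a leg call. The highest mean of the 83 sites, 1690, was on X (22433017 to 22433192), with no coding gene within 5000 bp. Others without such a gene, near the centromere of X, had means of 485, 286 and 228 in the authors' deposited table. The 83 also include the strongest sites of Hr4, Eip75B, Eip78C and vri given above, each with a neighbour that differed. A site 2281 bp from CG33687 (3L, 16195170 to 16196004) had -0.36, SE 0.26, in the authors' deposited table. The sites of Eip75B, Eip78C, vri and near CG33687 were gland calls when centred on the arms, at -0.84, -0.62, -0.86 and -0.99. Of these, only the one near CG33687 was a gland call when centred away from centromeres (-0.73). A strong site can also be uncalled for want of precision: in spok, which encodes an enzyme of ecdysone synthesis and lies near the centromere of 3R, the site with a mean of 565 had -1.43, SE 0.83, adjusted p = 0.104 by DESeq2 in the authors' deposited table, with an interval down to -3.05.

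Sites higher in leg lay less often inside genes than sites higher in gland. Inside the span of a coding gene were 43.4% of sites higher in leg (exact 95% interval 40.3 to 46.5) and 79.6% of sites higher in gland (76.7 to 82.4). Within 500 bp of an end of a span were 5.66% of leg sites (4.33 to 7.26) and 18.2% of gland sites (15.6 to 21.1). Of all sites 62.6% were inside a span and 11.5% near an end, and of sites not called 66.6% and 11.9%. On the arms away from centromeres the shares inside a gene were 58.5% and 80.5%, against 70.3% of all sites there. Near an end they were 7.80% and 18.3%, against 13.0%. The intervals cover counting error only and treat sites as independent, although neighbouring called sites mostly shared their direction. The gene table gives no strand, exons or introns, so an end may be either the start or the finish of transcription.

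Sites near centromeres were mostly higher in leg. Windows near the centromeres, set here by position (2L from 22 Mb, 2R to 5.5 Mb, 3L from 23 Mb, 3R to 4.5 Mb and X from 22.5 Mb), held 368 sites, 278 higher in leg and 11 higher in gland, with a median of 1.85 in the authors' deposited table. Outside them on the arms, 3005 tested sites gave 718 higher in leg (23.9%) and 770 higher in gland (25.6%). Chromosome 4 had 9 leg sites and 1 gland site of 17 (52.9% and 5.88%, against 29.6% and 22.7% of all sites). The Y had 19 leg sites of 64 tested (29.7%, like the 29.6% of all sites) and no gland site, although the labels give the samples as female. Its median was 0.60, against 0.63 over all sites, in the authors' deposited table. On chromosome M 4 of 5 sites were higher in gland, with a median of -5.43 in the authors' deposited table. Unlike most sites near centromeres, 2 near that of 2R were higher in gland too, at -5.15 and -4.83. DNA copy number of the 2 tissues was not measured in these files, and its part in any of these values was not tested.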

How the data were processed

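EcR was profiled by anti-Flag CUT&RUN in leg and salivary gland (2 replicates per fraction and tissue). DESeq2 (no version given), R 3.5.2, MACS2 2.1.2, bedtools 2.26, Picard 2.2.4, SAMtools 1.9 and Bowtie2 2.3.4.1 are listed in the submitters' processing notes, with no order or settings. The names of the deposited peaks point to merged replicates, trimming, removal of duplicates and a size selection of short fragments. Of the peak columns the authors deposited, the fold enrichment (a ratio), the −log10 q-value and the coordinates were used; the deposited integer score and summit offset (an other value, in bp) were not. In the authors' tables the mean is a signal (normalised read count), and the deposited log2 fold change, its standard error, the Wald statistic (a score) and the raw and adjusted p-value are taken to be DESeq2 output, from the column names and the notes. The libraries in the fit are not given in the sources used here.

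With no counts per library in these files, calls rest on the deposited adjusted p under 0.05 in place of a count model. To centre, the arms' median was subtracted from each fold change, and normal p-values from the change over its deposited standard error were adjusted by Benjamini-Hochberg, so these calls are approximate. Peaks overlapped by at least 1 bp, and intervals of shares are Clopper-Pearson. A site belonged to a gene when its middle lay in the span or within 2000 bp. Spans came from a RefSeq table (17872 genes, 13962 of them coding). Windows near centromeres were chosen by hand, and neighbours are adjacent called sites. Python 3.11.15, pandas 2.3.3, NumPy 2.4.6, SciPy 1.17.1 and matplotlib 3.10.9 were used. Only the adjustment, the overlap and the centred calls were tested on made-up data, the last with normal noise of the deposited standard error. The change over its standard error was mostly 0.936 to 1.06 times the deposited Wald statistic, with extremes of -10.7 and 6.16. Uncentred calls from that ratio gave 1030 leg and 788 gland sites, against 1024 and 786 as deposited. The 22 gene lists and the members were chosen with earlier results of these data known.

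Named sites were, per direction, the 15 called sites of largest fold change with a mean no lower than the median, 1 per gene within 5000 bp; up to 4 called sites of smallest adjusted p per list and direction; list members with most sites; the genes with most called sites, also in the less frequent direction; and the strongest sites not called or with a 95% interval within 1 log2 unit of 0. Further list members in the text were chosen after their values were seen. Sequence motifs were not analysed here.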

Additional observations from a re-analysis of the deposited data

How the results depend on the processing

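Sites higher in leg numbered 424 when centred on the arms, 650 when centred on the arms away from centromeres (chosen after seeing the data), 635 at an adjusted p under 0.01, 662 at means of 10 or more and 679 at means no lower than the median, against 1024 as deposited. Centring on the arms turned the difference of leg and gland sites to -1 for leg identity, -3 for disc eversion and matrix and -1 for secretory machinery, none of which turned when centred away from centromeres, and the fold change to -0.62 at Eip78C (3L, 21253967) and -0.051 at Hr4 (X, 1947097). It also took 75 named sites below the threshold, brought 5 above it, gave 50 genes with both directions, 36.3% of leg sites inside genes, 31.8% near centromeres and 68.6% of pairs at 20 to 50 kb with the same direction. Without centring, an adjusted p under 0.01 left 39 genes with both directions, of 165 with at least 2 called sites. Near an end at 1000 bp were 9.47% of leg and 29.0% of gland sites. Equally long lists gave shares of 33.1% (leg) and 32.9% (gland) of supernatant peaks, against 27.0% and 36.0%; peaks with a −log10 q of at least 10 gave 42.5% (gland supernatant), 31.8% (gland pellet) and a median of -2.55 at gland-only sites. No paired analysis was possible because the tables and merged lists hold no values per library, so the replicate block and leaving out replicates were not run; nor were motif alternatives, since no genome was used here. Fewer sites were called at low means; the depth per library is unknown, and its part was not tested.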
